A study of Mus musculus with 12 samples.

Results

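Genes that pattern the jaws were followed through the developing upper face of the mouse: the 6 Dlx homeobox genes (Dlx1 to Dlx6), the transcription factor genes Hand2 and Gsc, the endothelin ligand gene Edn1 and its receptor gene Ednra. They were chosen by name, and all 10 of 10 symbols were found among the 53392 gene identifiers of the deposited tables. Polyadenylated RNA was sequenced from 12 libraries in 4 groups of 3, all on the 129S4 background, after the covering ectoderm had been digested with trypsin. Palatal shelf mesenchyme at embryonic stage E13.5 was wild-type (Pdgfra+/+) or homozygous for the PI3K allele (PdgfraPI3K/PI3K), a knock-in at the locus of the receptor PDGFRα that removes its binding of the kinase PI3K. Maxillary process mesenchyme at stage E11.5 was Srsf3fl/fl;Wnt1-Cre+/+ (control) or Srsf3fl/fl;Wnt1-Cre+/Tg (labelled Srsf3 cKO, called labelled-cKO libraries here). The controls thus carried both floxed alleles and lacked only the transgene. Wnt1-Cre acts in cells of neural crest origin, so endothelium, muscle precursors and ectoderm in the tissue keep the floxed gene. The labels do not say how many embryos gave each library, so the p-values measure only the spread between these samples.

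The jaws form from the first pharyngeal arch, which is filled by neural crest cells. Endothelin-1, secreted by arch ectoderm and endothelium and by mesoderm, acts on the receptor that Ednra encodes in neural crest cells and is required for a lower jaw. Dlx1 and Dlx2 are transcribed in both the maxillary and the mandibular part of the arch, while Dlx5 and Dlx6, and more distally Dlx3 and Dlx4, mark the mandibular part, a nested arrangement known as the Dlx code. Hand2 is activated downstream of endothelin in the distal mandible, and Gsc, which encodes a homeodomain repressor, is required for proximal jaw and ear skeleton. Later, Dlx3, Dlx5 and Dlx6 are also transcribed in osteoblasts.

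The Dlx genes lie in linked pairs that face each other tail to tail. In the GENCODE annotation of GRCm38, Dlx1 (ENSMUSG00000041911.3, chromosome 2, 71528113 to 71533981, plus strand) and Dlx2 (ENSMUSG00000023391.8, 71543408 to 71546754, minus strand) are 9426 bases apart. Dlx6 (ENSMUSG00000029754.13, chromosome 6, 6863334 to 6868568, plus strand) and Dlx5 (ENSMUSG00000029755.10, 6877805 to 6882085, minus strand) are 9236 bases apart. Dlx3 (ENSMUSG00000001510.8, chromosome 11, 95120119 to 95125296, plus strand) and Dlx4 (ENSMUSG00000020871.8, 95140447 to 95146263, minus strand) are 15150 bases apart. Hand2 (ENSMUSG00000038193.4) lies at 57320983 to 57324633 of chromosome 8 and Ednra (ENSMUSG00000031616.7) at 77663031 to 77724464. Gsc (ENSMUSG00000021095.5) lies at 104471209 to 104473330 of chromosome 12 and Edn1 (ENSMUSG00000021367.8) at 42301476 to 42307990 of chromosome 13. All 10 are protein-coding. None of the 2259 to 5496 stretches of 31 nucleotides in the annotated transcripts of each Dlx gene occurred in those of another (0 shared), so near-identical sequence does not blur the Dlx genes into each other. Antisense or opposite-strand gene models overlap Dlx1 (Dlx1as), Dlx4 (Dlx4os), Dlx6 (Dlx6os1, Dlx6os2), Hand2 (Hand2os1), Edn1 (Gm47118) and Ednra (4933431K23Rik). Strand use in the counting is not given in the sources used here, so reads of these partners cannot be told apart from those of the genes.

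The upstream sequences of Hand2 and Gsc are shown because, of the members, these had the largest positive and the largest negative log2 fold change between the maxillary process groups, neither past the test. Both are RefSeq sequences of GRCm38.p6, 5′ to 3′ on the strand of the gene, ending at or before its annotated start. Capitals mark the homeodomain core TAATT, searched on both strands and so also printed as AATTA, and the TATA box TATAAA, likewise on both strands (TTTATA).
Hand2 (chr8:57320733-57320982, plus strand): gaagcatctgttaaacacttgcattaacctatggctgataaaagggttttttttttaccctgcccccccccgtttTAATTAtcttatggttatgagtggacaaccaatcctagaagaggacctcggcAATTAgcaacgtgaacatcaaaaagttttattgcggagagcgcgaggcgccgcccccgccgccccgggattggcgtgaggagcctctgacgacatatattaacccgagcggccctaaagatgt
Gsc (chr12:104473331-104473486, minus strand): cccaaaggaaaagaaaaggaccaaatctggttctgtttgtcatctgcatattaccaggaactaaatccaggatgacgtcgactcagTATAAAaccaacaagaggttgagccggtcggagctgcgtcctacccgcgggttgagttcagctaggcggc
The Hand2 sequence held 3 matches to TAATT, 2 of which overlap each other, and 25% of 32851 mouse promoter windows of 250 bases hold at least 1. Gsc had 1 match to TATAAA, present in 12.4% of those windows. Sequences for 6 of the 10 genes were matched, and those of Dlx3, Dlx4, Dlx5 and Dlx6 were not used here. These matches describe the letters of the windows only.

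Library totals ran from 30509338 to 37406960 estimated counts in the palatal shelf and from 15932541 to 27887654 in the maxillary process. Replicates differed by more than counting noise: chi-square divided by its degrees of freedom was 11.7 or more for every pair within a group. The targeted gene was checked first. Srsf3 had 470, 407 and 416 TPM (a transcript level scaled for length and depth) in the controls and 320, 441 and 407 TPM in the labelled-cKO libraries, which overlapped. The difference in log2 counts was 0.03 (standard error 0.14, adjusted p 0.9539 by edgeR's quasi-likelihood test), and -0.16 with limma on the TPM scale. A gene total does not show the loss of part of a gene's exons, but the Srsf3 total did not bear out the label, and every direction in the maxillary process below rests on it. Pdgfra had a log2 fold change of 0.02 (standard error 0.10, adjusted p 0.9997, edgeR) in the palatal shelf, with either sign when single libraries were left out. In TPM it had 140, 130 and 145 in wild-type and 186, 200 and 243 in PI3K libraries, 0.59 higher by limma, and its effective length was shifted by -0.58 on the log2 scale (standard error 0.02, adjusted p 0.00213, limma). The gene total does not check a knock-in allele. The defining markers of the labelled tissues were present: 6 markers of neural crest mesenchyme summed to 1063 to 2287 TPM per library, and 4 palatal mesenchyme genes to 397 to 704 TPM in palatal shelves against 40.5 to 141 TPM in maxillary processes. Ectoderm genes (10) summed to 362 to 810 TPM in palatal shelves and to 1.83 to 17.8 TPM in maxillary processes. RNA of these genes thus remained in the palatal shelf libraries after the trypsin digestion. The Hox genes of the second arch (4) summed to at most 0.233 TPM in any library. The 8 forebrain genes, listed because Dlx genes are also active in forebrain interneurons, summed to 53.2 to 144 TPM. Lhx6, which arch mesenchyme also expresses, made up most of that sum, with group means of 99.0 to 123 TPM, while Gad1 and Gad2 had group means of at most 0.419 and 0.15 TPM.

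Across the series the genes fell into abundant and scarce members. In wild-type palatal shelves Ednra was the most abundant at 84.0 ± 17.7 TPM (SD, n = 3), followed by Dlx1 (57.0 ± 8.6), Dlx5 (42.5 ± 27.4), Dlx2 (34.3 ± 1.79), Gsc (23.7 ± 9.09), Dlx3 (17.6 ± 11) and Dlx6 (7.53 ± 5.92 TPM). Edn1, Hand2 and Dlx4 were scarce, with 1.49 ± 0.494, 0.451 ± 0.446 and 0.421 ± 0.172 TPM. Only 2 steps in this order, from Ednra to Dlx1 and from Dlx2 to Gsc, had ranges that did not overlap. In control maxillary processes Dlx2 led at 58.9 ± 13.2 TPM, before Dlx1 (47.8 ± 9.67), Ednra (46.9 ± 11.3), Dlx5 (40.8, range 29.0 to 52.0), Gsc (19.0, range 8.41 to 31.3), Dlx6 (8.39 ± 3.69) and Dlx3 (1.58 ± 0.811 TPM). The ranges of those from Dlx2 to Dlx6 overlapped neighbour by neighbour, and clear steps stood only below Dlx6 and below Dlx3. Hand2 (0.245 ± 0.058), Edn1 (0.157 ± 0.114) and Dlx4 (0.0484 ± 0.042 TPM) came last.

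**Figure D1:**
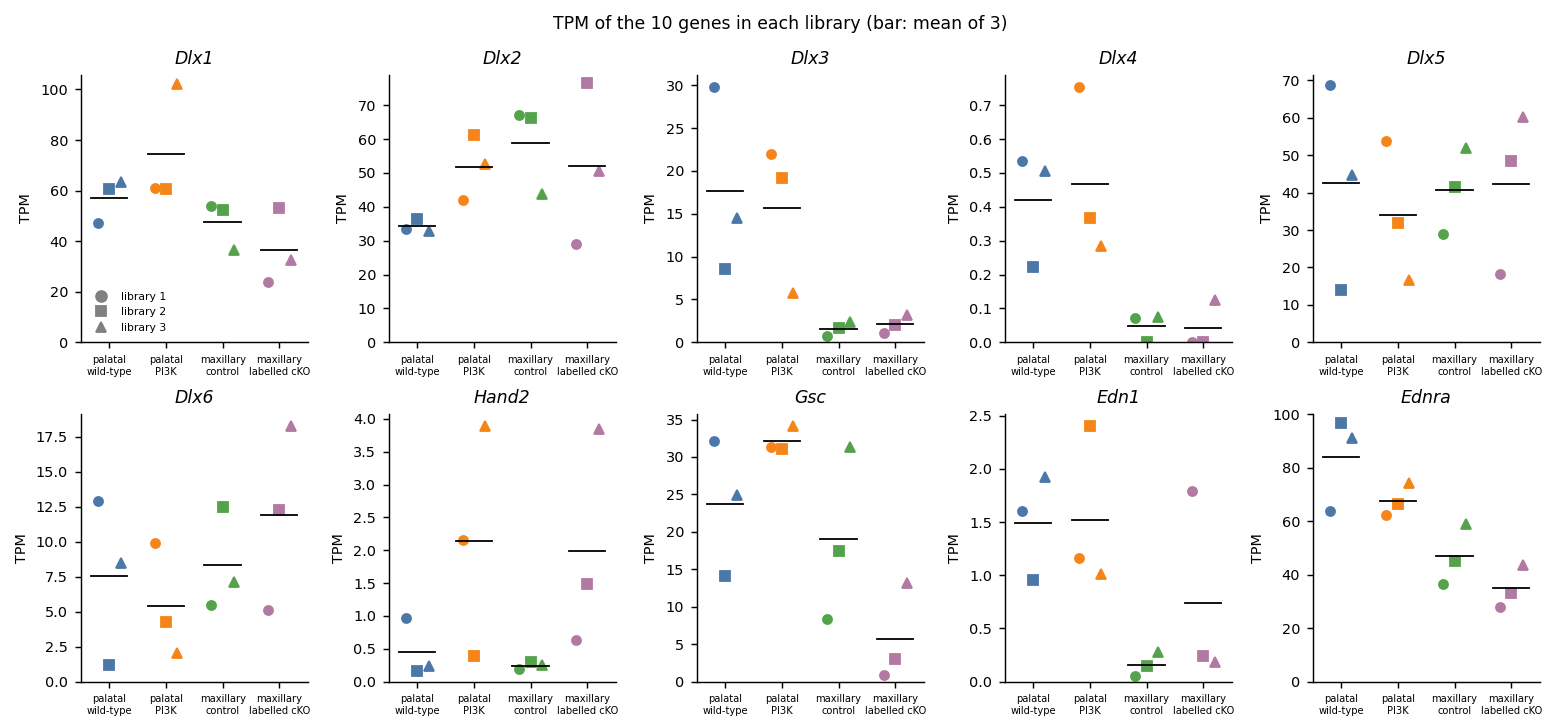
TPM of each of the 10 genes (vertical axes, linear from 0) in the 3 libraries of each group (symbols) with the group mean (bar). Dlx3 and Dlx4 lay above all maxillary values in every palatal library, and Hand2 lay above all controls in each labelled-cKO library.

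Palatal shelf and maxillary process libraries come in separate tables and differ in tissue, stage, floxed allele and sequencing lane together. These cannot be told apart, so levels in the 2 tissues stand side by side without a test. Dlx3, Dlx4 and Ednra had ranges that did not overlap between the tissues. Dlx3 had a lowest, median and highest value of 5.76, 16.9 and 29.8 TPM over the 6 palatal libraries and 0.743, 1.83 and 3.19 TPM over the 6 maxillary libraries. The tissues also differed in genes of ectoderm, a known site of Dlx3. These summed to 362 to 810 TPM in palatal and to 1.83 to 17.8 TPM in maxillary libraries, and their part was not tested. Ednra had 62.2, 70.4 and 96.8 TPM against 28.0, 40.1 and 59.0 TPM. Dlx4 reached at most 0.753 TPM in the palatal shelf and 0.126 TPM in the maxillary process. Ranges of Dlx2, Dlx5 and Dlx6 overlapped between the tissues: medians were 39.1 and 58.3 TPM for Dlx2, 38.3 and 45.0 TPM for Dlx5, and 6.38 and 9.73 TPM for Dlx6, palatal shelf first. For Dlx2, wild-type palatal values (32.9 to 36.3 TPM) all lay below control maxillary values (43.7 to 67.0 TPM). The overlap came from the PI3K libraries (41.9 to 61.1 TPM) and from labelled-cKO library 1 (29.1 TPM). In the orders of the 4 groups for Dlx1, Dlx5, Dlx6, Hand2, Gsc and Edn1, each group overlapped the next one. Groups further apart in an order did not always overlap. For Edn1, wild-type palatal values (0.954 to 1.92 TPM) all lay above control maxillary values (0.0513 to 0.278 TPM). The overlap of Edn1 between the tissues came from labelled-cKO library 1 (1.79 TPM).

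Within the Dlx family the pairs divided the RNA unequally. Dlx1 and Dlx2 together held 60.2 ± 19.2% of the summed Dlx TPM in wild-type palatal shelves and 67.4 ± 10.4% in control maxillary processes (SD, n = 3 each). Dlx5 and Dlx6 held 29.1 ± 15.1% and 31.6 ± 9.83%, and Dlx3 with Dlx4 10.7 ± 4.47% and 1.06 ± 0.606%. Partners were unequal too. Dlx5 exceeded Dlx6 in all 12 libraries, by 3.29 to 11.8 times in TPM. Dlx1 was 0.645 to 0.838 times Dlx2 in the 6 maxillary libraries and 0.991 to 1.94 times Dlx2 in the 6 palatal libraries. Dlx1 was thus below Dlx2 in all maxillary libraries and above it in 5 of the 6 palatal ones, PI3K library 2 being the exception. The spread of the Dlx5 and Dlx6 share, from 10.4% to 42.4% over the palatal libraries, was larger than the distance between the group means.

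**Figure D2:**
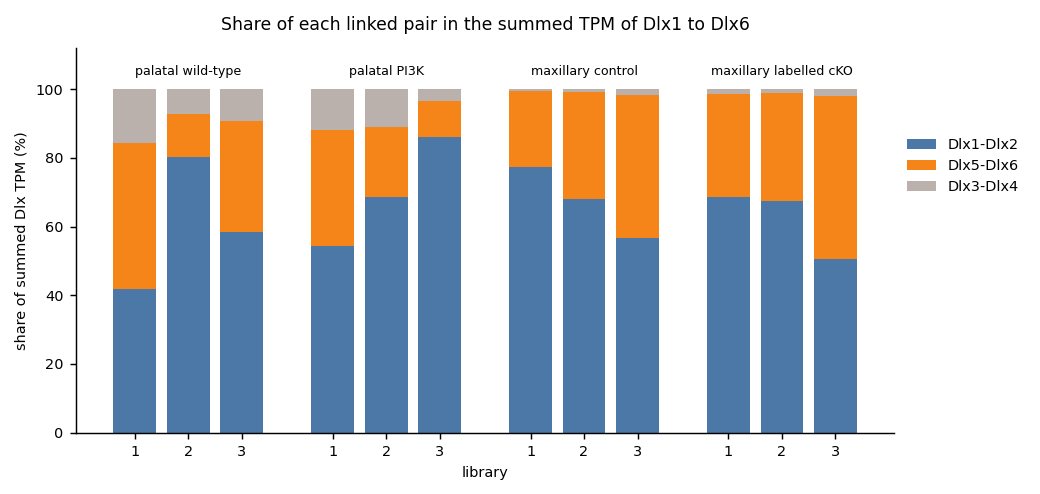
Share of the summed TPM of Dlx1 to Dlx6 (vertical axis, percent) held by each linked pair (coloured segments) in each library (stacked bars, 3 per group). The share of Dlx5 and Dlx6 ran from 10.4% to 42.4% over the palatal shelf libraries, and that of Dlx3 and Dlx4 stayed at or under 2.01% in the maxillary process.

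The palatal shelf comparison asked what the PI3K allele changes at E13.5. No member passed a false discovery rate (FDR) of 0.05 (0 of 10 tested, edgeR quasi-likelihood test), where 0% of all 16525 genes tested did; DESeq2 and limma also called 0 of the 10. At an unadjusted p under 0.05 there were 2 members, Dlx2 and Hand2, against 2.14% of all genes (1.53% higher and 0.611% lower). The count of 2 was 1 without wild-type library 2, wild-type library 3 or PI3K library 3, and without wild-type library 1 there were 3 higher and 1 lower. The groups did not overlap in 2, Dlx1 and Dlx2, both higher, against 6.23% of all genes (3.12% higher and 3.11% lower). The median log2 fold change of the 10 was 0.15 (6 higher, 4 lower), beside -0.008 over all genes, of which 48% were above 0.

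Dlx2, transcribed throughout the first arch, had 33.5, 36.3 and 32.9 TPM in wild-type and 41.9, 61.1 and 52.7 TPM in PI3K libraries. All PI3K libraries lay above all wild-type ones. Its log2 fold change was 0.60 (standard error 0.15, 95% interval 0.26 to 0.94), with an unadjusted p of 0.0041 and an adjusted p of 0.9997 (edgeR). Its neighbour Dlx1 had 47.2, 60.5 and 63.3 TPM in wild-type and 61.0, 60.6 and 102 TPM in PI3K libraries, so that in TPM 1 wild-type library lay above 2 PI3K libraries. In CPM (counts scaled to library size, as in the test) the Dlx1 groups did not overlap. The log2 fold change was 0.36 (standard error 0.17, adjusted p 0.9997, edgeR), and 0.14 without PI3K library 3.

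Dlx3, Dlx5 and Dlx6 varied widely within both groups. Dlx5 had 68.8, 14.1 and 44.7 TPM in wild-type and 53.7, 31.9 and 16.7 TPM in PI3K libraries. Dlx6 had 12.9, 1.2 and 8.5 TPM against 9.93, 4.26 and 2.04 TPM. Dlx3, a regulator of bone, tooth and skin differentiation, had 29.8, 8.51 and 14.5 TPM against 22.0, 19.2 and 5.76 TPM. All were highest in wild-type library 1 and low in wild-type library 2 and PI3K library 3, and the groups overlapped throughout. Their log2 fold changes of -0.31 (standard error 0.60), -0.35 (0.86) and -0.16 (0.59) carried 95% intervals of -1.72 to 1.09, -2.36 to 1.66 and -1.54 to 1.22. Without wild-type library 1 they were 0.25, 0.49 and 0.48, and without PI3K library 3 they were 0.03, 0.03 and 0.25, with the direction turned each time. The adjusted p stayed at 0.7941 or more for these 3 genes in every fit tried.

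Genes of osteoblasts (8: Runx2, Sp7, Alpl, Ibsp, Spp1, Dmp1, Ifitm5 and Phex) varied beside them. They summed to 1462, 91.5 and 275 TPM in wild-type and to 748, 192 and 102 TPM in PI3K libraries. The 6 libraries stood in the same order by this sum, by Dlx5 and by Dlx6. Dlx3 followed that order except that 2 neighbouring pairs changed places, and Dlx1 and Dlx2 did not follow it. In the comparison 7 of the 8 osteoblast genes were lower and 0 passed the FDR (edgeR), with a median log2 fold change of -0.87; their part in the Dlx values was not tested. The 10 genes of ectoderm, another known site of Dlx3, summed to 572, 728 and 783 TPM in wild-type and 763, 810 and 362 TPM in PI3K libraries. Their lowest sum was in PI3K library 3, where Dlx3 was lowest too. Wild-type library 1, where Dlx3 was highest, had the lowest ectoderm sum of the wild-type libraries. The part of the ectoderm genes was not tested either. In bulk tissue, fewer cells of a type and less RNA per cell cannot be told apart.

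**Figure D3:**
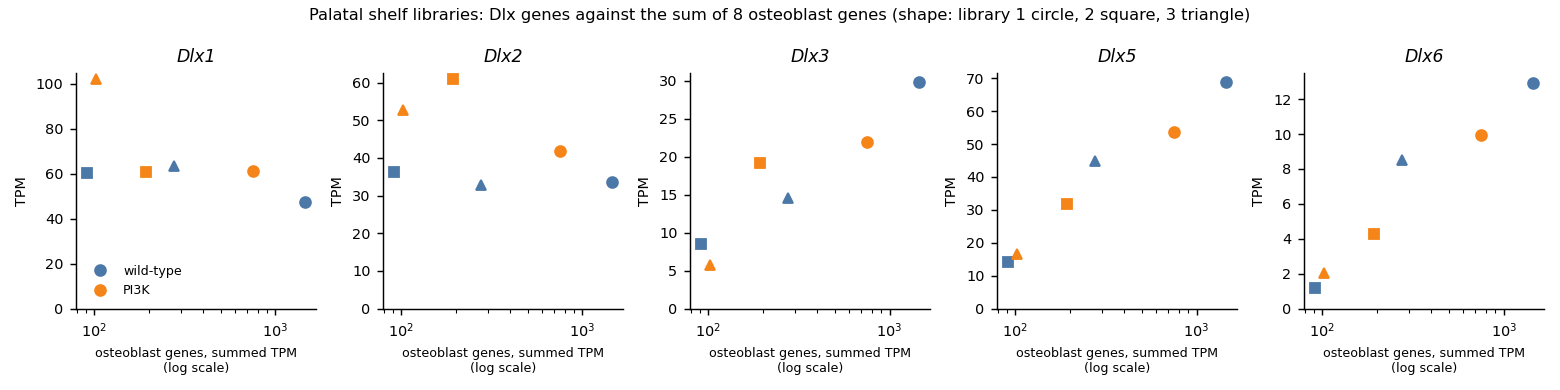
TPM of 5 Dlx genes (vertical axes) against the summed TPM of 8 osteoblast genes (horizontal axes, log scale) in the 6 palatal shelf libraries, coloured by genotype. Dlx5 and Dlx6 stood in the same order as the osteoblast sum, from 91.5 TPM in wild-type library 2 to 1462 TPM in wild-type library 1, and Dlx1 and Dlx2 did not.

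Hand2 was scarce in palatal shelves and uneven between libraries. It had 0.965, 0.154 and 0.234 TPM in wild-type (38, 7 and 10 estimated counts) and 2.16, 0.394 and 3.89 TPM in PI3K libraries (85, 16 and 183 counts). PI3K libraries 1 and 3 lay above all wild-type libraries and PI3K library 2 did not. The difference on the log2 scale was 2.24 (standard error 0.93, 95% interval 0.06 to 4.42, unadjusted p 0.0455, adjusted p 0.9997, edgeR). It was 1.52 without PI3K library 3 and 3.46 without wild-type library 1. Limma gave 0.98 on the log2(TPM + 1) scale, which understates changes of scarce genes. The 6 skeletal muscle genes were also higher in PI3K libraries, with sums of 54.3, 4.6 and 9.03 TPM in wild-type and 201, 36.3 and 119 TPM in PI3K libraries, and 0 of them passed the FDR (edgeR). Their part in the Hand2 values was not tested.

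The remaining members gave small or imprecise values. Gsc had 32.2, 14.1 and 24.9 TPM in wild-type and 31.4, 31.1 and 34.1 TPM in PI3K libraries, with a log2 fold change of 0.44 (95% interval -0.20 to 1.08). Ednra had 63.8, 96.8 and 91.3 TPM against 62.2, 66.4 and 74.4 TPM, a log2 fold change of -0.31 (95% interval -0.67 to 0.05). In both genes wild-type library 1 lay within the PI3K range. Without wild-type library 1 the values were 0.75 for Gsc and -0.45 for Ednra, and without wild-type library 2 they were 0.18 and -0.18. Edn1 had 57, 39 and 74 estimated counts in wild-type and 41, 88 and 43 in PI3K libraries, and Dlx4 had 16, 8 and 18 against 26, 11 and 13. Their log2 fold changes were 0.04 (95% interval -1.0 to 1.08) and 0.27 (-1.0 to 1.53). The Edn1 value was -0.19 when wild-type library 2 was left out and -0.47 without PI3K library 2. The Dlx4 value was -0.04 when wild-type library 2 was left out and -0.27 without PI3K library 1.

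**Figure D4:**
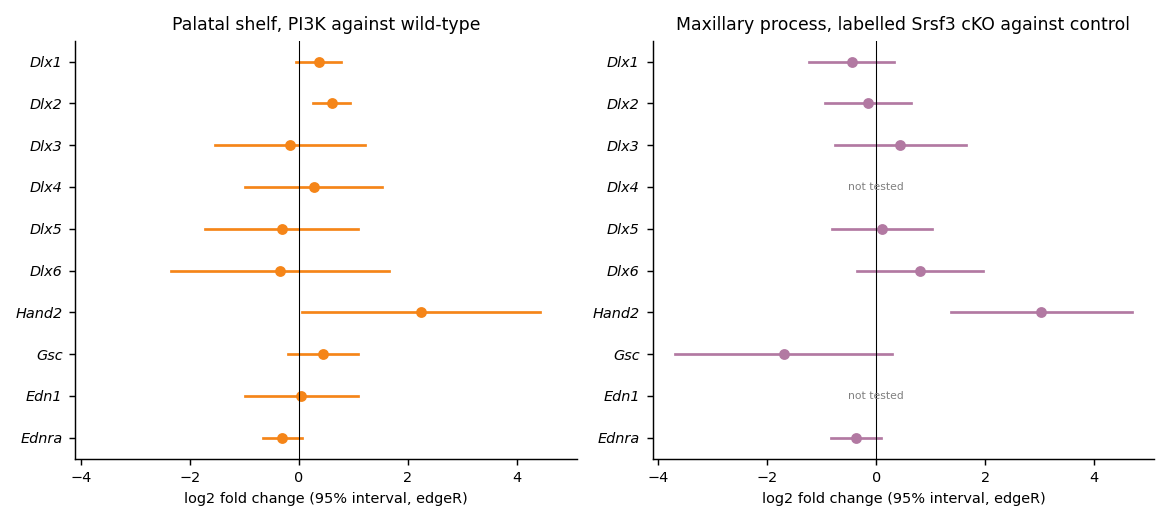
Log2 fold change (horizontal axis, points) with its 95% interval (lines, edgeR) for the 10 genes in each comparison. In the palatal shelf only the intervals of Dlx2 (0.26 to 0.94) and Hand2 (0.06 to 4.42) lie above 0, in the maxillary process only that of Hand2 (1.38 to 4.69), and 2 genes were too scarce to test there.

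Other genes of the endothelin pathway and of jaw identity were read in the same fit. Of 12 endothelin pathway genes, 9 were higher and 3 lower, 0 passed the FDR (edgeR) and 1 had an unadjusted p under 0.05. This was Ednrb, the second endothelin receptor gene, active in melanocyte and enteric precursors, with 21.8, 18.9 and 21.2 CPM in wild-type and 27.5, 37.5 and 36.5 CPM in PI3K libraries. Its groups did not overlap, and the log2 fold change was 0.71 (standard error 0.14, unadjusted p 0.00149, adjusted p 0.9997, edgeR). Plcb4, a phospholipase of the receptor's signal path, and the ligand gene Edn3 came next, with log2 fold changes of 0.22 (standard error 0.12) and 0.32 (0.17). Of 7 upper jaw genes, 5 were higher and 2 lower, 0 passed and 3 had an unadjusted p under 0.05: Pou3f3 (log2 fold change 0.52, standard error 0.14), Sim2 (0.68, 0.19) and Nr2f2 (0.40, 0.16). Of 5 lower jaw genes tested, 3 were higher and 2 lower, and Barx1, which marks mesenchyme of molar teeth, had the smallest unadjusted p (0.0132), at a difference of 0.50 on the log2 scale (standard error 0.15). All of these had an adjusted p of 0.9997 (edgeR), and DESeq2 and limma called 0 genes of these 3 lists.

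The maxillary process comparison asked how these genes differ when embryos with floxed Srsf3 also carry Wnt1-Cre. Of the 10 members 8 had enough counts to be tested, and 0 of 8 passed an FDR of 0.05 (edgeR), beside 0.0842% of all 14254 genes (0.0561% higher and 0.0281% lower). DESeq2 called 1, Hand2, and limma 0. At an unadjusted p under 0.05 there was 1 member, again Hand2 and higher, against 12.2% of all genes (6.34% higher and 5.91% lower). Without labelled-cKO library 1 there were 2 higher, and without control library 1, labelled-cKO library 2 or labelled-cKO library 3 there were 1, 1 and 2 lower. Hand2 was also the only member, of the 8 tested, whose groups did not overlap, against 18.1% of all genes (8.76% higher and 9.37% lower). The members' share was therefore close to that of all genes on both counts. Of the 8, 4 were higher and 4 lower, with a median log2 fold change of -0.02 beside 0.004 over all genes, of which 50.7% were above 0.

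Hand2, the distal mandible gene, had 0.185, 0.300 and 0.250 TPM in controls (4, 7 and 7 estimated counts) and 0.639, 1.49 and 3.85 TPM in the labelled-cKO libraries (17, 56 and 95 counts). Each labelled-cKO library lay above each control, and the 3 spread over a wide range. The log2 fold change was 3.03 (standard error 0.71, 95% interval 1.38 to 4.69), with an unadjusted p of 0.00316 and an adjusted p of 0.24 (edgeR). DESeq2 gave 3.07 with an adjusted p of 0.00518, and over all alternatives the adjusted p ran from 0.00518 to 0.7099, the highest without control library 2. On that same log2(TPM + 1) scale limma gave 1.12. Without labelled-cKO library 3 the log2 fold change was 2.18. Even the highest library held Hand2 far under the level of Dlx5 there (60.2 TPM). The opposite-strand Hand2os1 had 0 counts in the controls and 10 in labelled-cKO library 3.

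Gsc had lower values, without passing the test. It had 8.41, 17.4 and 31.3 TPM in controls and 0.838, 3.08 and 13.2 TPM in the labelled-cKO libraries. The lowest control lay under the highest labelled-cKO library, so the groups overlapped by that 1 library. Its log2 fold change was -1.70 (standard error 0.85, 95% interval -3.69 to 0.28, unadjusted p 0.0829, adjusted p 0.4797, edgeR). Without labelled-cKO library 3, the highest of its group, it was -3.15, and without any other single library it lay between -2.04 and -1.18.

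Dlx1 and Dlx2 were lowest in labelled-cKO library 1. Dlx1 had 54.1, 52.5 and 36.6 TPM in controls and 24, 53.1 and 32.6 TPM in the labelled-cKO libraries. Dlx2 had 67.0, 66.1 and 43.7 TPM against 29.1, 76.7 and 50.5 TPM. Log2 fold changes were -0.45 (95% interval -1.23 to 0.32) and -0.15 (-0.94 to 0.64), and without labelled-cKO library 1 they were -0.15 and 0.14, so the direction of Dlx2 turned. The Dlx1 value was -0.84 without labelled-cKO library 2. Labelled-cKO library 1 also had the lowest summed Dlx level, 77.5 TPM against 142 to 193 TPM in the other 5. The neural crest mesenchyme genes were lowest there as well (1063 TPM against 1648 to 2287 TPM), and endothelial genes (403 TPM against 157 to 232 TPM) and red blood cell genes (27109 TPM against 9387 to 16524 TPM) were highest. Their part in the Dlx values was not tested.

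Dlx5 and Dlx6 were not told apart between the groups. Dlx5 had 29.0, 41.4 and 52.0 TPM in controls and 18.2, 48.5 and 60.2 TPM in the labelled-cKO libraries. Dlx6 had 5.49, 12.5 and 7.13 TPM against 5.14, 12.3 and 18.3 TPM. Labelled-cKO library 1 was the lowest for both, and library 3 the highest. Their log2 fold changes were 0.10 (95% interval -0.82 to 1.03) and 0.80 (-0.36 to 1.96), and that of Dlx5 was -0.21 without labelled-cKO library 3 and 0.46 without library 1. The Dlx6 value was 0.38 without labelled-cKO library 3 and 1.20 without library 1. On the log2(TPM + 1) scale, with limma, the Dlx5 value was -0.07 and the Dlx6 value 0.38. Dlx6os1, on the opposite strand of Dlx6, had a log2 fold change of 1.74 (standard error 0.79, adjusted p 0.4317, edgeR). Dlx3 had 18, 43 and 74 estimated counts in controls and 31, 85 and 88 in the labelled-cKO libraries (log2 fold change 0.44, 95% interval -0.76 to 1.64). Leaving out control library 1 gave 0.13 for Dlx3 and leaving out control library 3 gave 0.81. The Dlx3 value was 0.75 without labelled-cKO library 1 and 0.03 without labelled-cKO library 3, and limma on log2(TPM + 1) gave 0.24.

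Ednra, the receptor gene, had 36.6, 45.2 and 59.0 TPM in controls and 28.0, 33.1 and 43.7 TPM in the labelled-cKO libraries. The 2 lowest values were both in labelled-cKO libraries, and the groups overlapped. The log2 fold change was -0.37 (standard error 0.20, 95% interval -0.83 to 0.08, adjusted p 0.4951, edgeR), and it lay between -0.54 and -0.21 without any 1 library. Edn1 and Dlx4 were too scarce to be tested. Edn1 had 1, 3 and 7 estimated counts in controls and 43, 8 and 4 in the labelled-cKO libraries, so 1 library, the one richest in endothelial genes, held most of its 55 counts. With no filter on low counts its log2 fold change was 2.20 (standard error 0.95, adjusted p 0.4697, edgeR). Dlx4 had 3 counts in each group over all its libraries, and the counts of 0 in 3 of the 6 libraries allow up to 0.11 to 0.174 CPM by counting error alone.

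Genes known from lower jaw mesenchyme were read beside Hand2, though some were abundant in the upper face too. In wild-type palatal shelves Pitx1 had a mean of 81.7 TPM and Barx1 of 300 TPM, and Barx1 had 287 TPM in control maxillary processes. Hand1, Gbx2 and Nkx3-2 were scarce in wild-type palatal shelves, at 0.00982, 0.0572 and 0.509 TPM, with Unc5c and Cited1 between at 11.3 and 12.6 TPM. Of 7 on the list, 5 were tested, 4 were higher and 1 lower, with a median log2 fold change of 1.62 beside 0.004 over all genes, and 0 passed the FDR (edgeR). At an unadjusted p under 0.05 there were 4 higher and 1 lower, and leaving out single libraries gave 3 or 4 higher. Pitx1, a homeobox gene of oral mesenchyme and hindlimb, had 0.437, 0.927 and 0.180 CPM in the control group and 8.68, 20.2 and 53.7 CPM in the labelled-cKO libraries. Its log2 fold change was 5.78 (standard error 0.85, adjusted p 0.09007, edgeR). Unc5c, a netrin receptor gene, had a log2 fold change of 2.33 (standard error 0.44, adjusted p 0.1403). Cited1, which encodes a transcriptional co-regulator, had 0.74 (standard error 0.21, adjusted p 0.2917, edgeR). Barx1 was the lower one, at a log2 fold change of -1.50 (standard error 0.48, adjusted p 0.3192). DESeq2 called Pitx1 and Unc5c, as did edgeR with no filter on low counts, and without labelled-cKO library 1 edgeR called Pitx1, while limma called 0. Hand1, the paralog of Hand2 in the distal arch, had 0 counts in all 6 maxillary libraries.

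Most upper jaw genes had lower values. Of 6 tested, 1 was higher and 5 lower, with a median log2 fold change of -0.49, and 0 passed (edgeR). Irx5 had the smallest unadjusted p (log2 fold change -0.47, standard error 0.12, adjusted p 0.2598), followed by Nr2f2 (1.43, 0.44, adjusted p 0.3086) and Foxl2 (-0.77, 0.30, adjusted p 0.3815). Foxl2 was called without labelled-cKO library 1. Sim2 was too scarce to be tested, with 5.8, 2.52 and 0.144 TPM in controls and 0.152, 0.135 and 0.183 TPM in the labelled-cKO libraries. Of 11 endothelin pathway genes tested, 4 were higher and 7 lower and 0 passed with edgeR, DESeq2 or limma, as for the upper jaw genes. Plcb4 (log2 fold change 0.51, standard error 0.16), Ece1, which encodes the enzyme that makes active endothelin (0.51, 0.18), and Furin, a protease that cuts its precursor (-0.22, 0.08), had unadjusted p of 0.0129, 0.0225 and 0.0291. Ednrb had 8.3, 12.9 and 14.0 CPM in the control group and 34.5, 5.59 and 8.59 CPM in the labelled-cKO libraries, with only library 1 high.

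**Figure D5:**
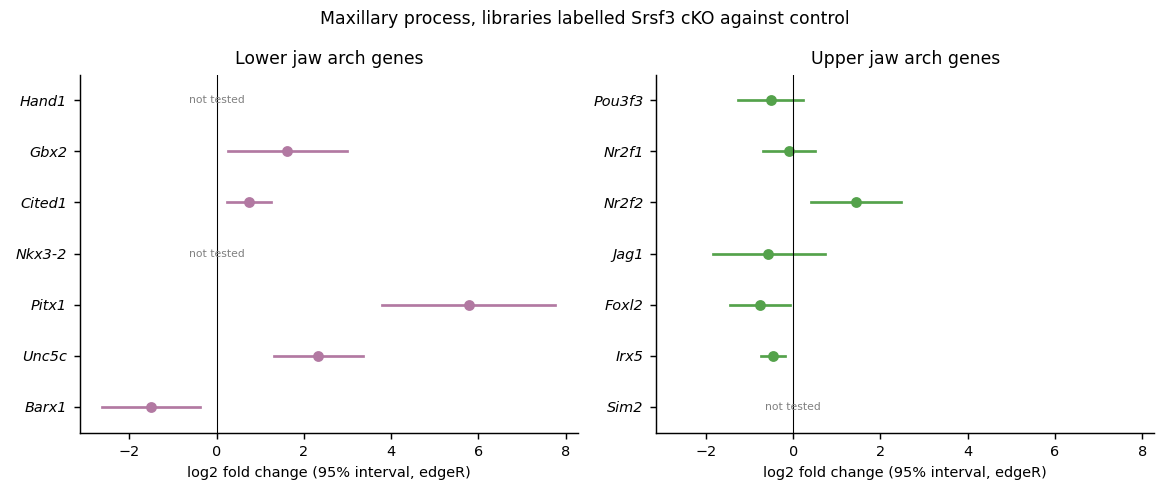
Log2 fold change (horizontal axis, points) with its 95% interval (lines, edgeR) of lower jaw and upper jaw genes between the maxillary process groups. Of the 5 lower jaw genes tested, 4 lie above 0 and Barx1 lies below, while of the 6 upper jaw genes tested Nr2f2 lies above 0 and 5 lie below.

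Markers of other tissue differed between the same groups. All 9 ectoderm genes tested were higher in the labelled-cKO libraries, 6 of them at an unadjusted p under 0.05 and 0 past the FDR (edgeR), with sums of 1.83 to 8.25 TPM in controls and 10.1 to 17.8 TPM there. The 6 became 1 without control library 2 or labelled-cKO library 3, 3 without control library 3 and 9 without control library 1. All 7 endothelial genes were higher, all at an unadjusted p under 0.05 and 0 past the FDR, with sums of 157 to 166 TPM and 200 to 403 TPM, and 4 were at that p without control library 3. The 6 neural crest mesenchyme genes were all lower, 2 at an unadjusted p under 0.05 and 0 past the FDR (edgeR), with sums of 1913 to 2287 TPM and 1063 to 1790 TPM. Pdgfra and Pdgfrb differed least among them, with log2 fold changes of -0.08 and -0.01. DESeq2 called 1 of the ectoderm genes (Krt18) and 3 of the endothelial genes (Pecam1, Cdh5 and Kdr). The 3 skeletal muscle genes tested were all higher, with list sums of 5.61 to 9.47 TPM in controls and 9.2 to 19.9 TPM in labelled-cKO libraries. Of these only Myod1 had an unadjusted p under 0.05 (1 against 84 counts, log2 fold change 5.8, adjusted p 0.09279, edgeR). All 5 neuron and glia genes tested were lower, 3 at that p, with list sums of 50.1 to 166 TPM and 37.2 to 49.3 TPM. The part of these markers in the values of Hand2, Gsc, Edn1 and the lower jaw genes was not tested.

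Effective length, the estimated count divided by TPM and centred within each library, depends on how a gene's long and short transcripts are mixed. It was tested for members with at least 50 counts in all libraries, 6 in the palatal shelf and 5 in the maxillary process. None passed (0 of 6 and 0 of 5, limma; 0 and 0 at an unadjusted p under 0.05), where 0.00775% and 0.00909% of all genes did, and 3.89% and 5.13% at the unadjusted p. Shifts of Dlx2, Dlx5 and Ednra had a standard error of 0.01 in both tissues and were at most 0.01 in size on the log2 scale. Dlx1 and Dlx6 were less precise in the maxillary process, with shifts of -0.16 (standard error 0.14) and 0.15 (0.16).

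The genes most like a member in pattern were taken as those with the smallest root mean square difference in log2(TPM + 1) over the 12 libraries, each gene centred on its own mean, among 14327 other genes. For Dlx5 these were Pcdh10 (0.47), Tcf7 (0.47) and Sstr1 (0.50), and its linked partner Dlx6 was closer still (0.40), against a median of 0.79 over the genes compared. For Ednra they were Pcdh20 (0.12), Filip1l (0.17) and Pts (0.17), against a median of 0.55. Dlx2 had Gm47283 (0.22), Nrf1 (0.27) and Mthfd2l (0.27) nearest, and Dlx1 lay at the median of 0.55. The nearest to Hand2 were Rps12-ps4 (0.49), Eml5 (0.50) and Zfp719 (0.52), against a median of 0.81. These distances share the tissue difference and the depth of each library, and they are a description.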

How the data were processed

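The estimated counts per gene were deposited by the authors without normalisation, and the deposited TPM values were scaled by the authors for transcript length and depth. Per the submitters' processing notes, STAR 2.7.0, Salmon 1.1.0, DESeq2 1.28.1 and build mm10 were used, with no role given. Transcript index and strand setting are not given in the sources used here. Symbols came from GENCODE release M21 (GRCm38), with 53355 of 53392 identifiers matched without version.

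Counts were rounded and tested with edgeR 4.0.16 (quasi-likelihood F-test, TMM, default low-count filter, Benjamini-Hochberg over all genes tested) in R 4.3.3, each comparison on its own 6 libraries with genotype as the only term. Effective length was tested with limma 3.58.1. DESeq2 1.42.0 and limma on log2(TPM + 1) or log2(TPM + 0.1) were alternatives. All except limma on log2(TPM + 0.1) were tested on simulated data first.

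The members and lists were chosen with earlier results of these data known; the osteoblast list was written after the members' values were seen. The text names all members, list genes past the threshold or up to 3 per list with the smallest unadjusted p, and the 3 genes nearest in pattern to Dlx2, Dlx5, Hand2 and Ednra; others (among them Barx1, Ednrb, Hand1, Dlx6os1 and Hand2os1) were named after their values were seen where they fall outside this rule. Some genes of the jaw lists are not reported here and are left out of the list counts.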

Additional observations from a re-analysis of the deposited data

How the results depend on the processing

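The number of genes past the FDR in the palatal shelf (0 with edgeR) was 5 with DESeq2 and 0 without any 1 library. In the maxillary process it was 12 (8 higher, 4 lower), and 143 with no filter (86 and 57), 40 with the replicate block (22 and 18), 356 with DESeq2 (201 and 155), 12 with limma on TPM + 1 (6 and 6) and 2 to 29 without 1 library, the highest without labelled-cKO library 1. Effective length calls were 1 in each tissue; the replicate block gave 0 and 0, a minimum count of 20 gave 2 in the maxillary process, and leaving out 1 library gave 0 to 1 and 0 to 5. Of 250 values of members under alternatives, 229 kept direction and side of the threshold, 1 passed it (Hand2 in the maxillary process with DESeq2, 3.07) and 20 changed sign, none of which passed in any fit. Those with all libraries kept were palatal Edn1 (-0.03 with the replicate block, -0.003 and -0.02 with limma on TPM + 1 and TPM + 0.1) and maxillary Dlx5 (-0.01, -0.07 and -0.08). Without 1 library the palatal ranges that crossed 0 were -0.49 to 0.48 for Dlx3, -0.27 to 0.50 for Dlx4, -0.78 to 0.25 for Dlx5, -1.24 to 0.49 for Dlx6 and -0.47 to 0.29 for Edn1; the maxillary ones were -0.54 to 0.14 for Dlx2 and -0.21 to 0.46 for Dlx5. Srsf3 had 0.002 with limma in the palatal shelf and -0.16 in the maxillary process, and -0.09 to 0.002 and -0.07 to 0.17 without 1 library. Pdgfra ran from -0.07 to 0.10 and from -0.32 to 0.11. Limma on TPM + 1 also gave smaller values for palatal Dlx4 (0.04), Dlx5 (-0.20) and Dlx6 (-0.24). The cause was not tested. List counts at an unadjusted p under 0.05, taken without 1 library as a choice made after seeing the data, ran in the palatal shelf from 1 to 3 for higher lower jaw genes (3 without wild-type library 1) and 1 to 2 for higher endothelin pathway genes (2 without PI3K library 1). In the maxillary process they ran from 0 to 2 for higher and for lower endothelin pathway genes (0 and 0 without control library 2), and from 1 to 3 for lower upper jaw genes (1 without control library 2). Same-numbered libraries of a comparison correlated in their deviations at 0.53, 0.22 and -0.22 in the palatal shelf and at 0.08, 0.11 and 0.23 in the maxillary process, so the replicate numbers were not taken as pairs, and not every library correlated best with its own number. The block changed the FDR call of no member. At an unadjusted p under 0.05 (edgeR) it gave 2 members higher and 1 lower in the palatal shelf. In the maxillary process it gave 1 higher and 2 lower. Without the block there were 0 lower in either tissue. Depth limited Dlx4 and Edn1 in the maxillary process and Hand2 in its controls, where single libraries held 0 to 7 counts.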

Other observations

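Signals upstream of the Dlx and endothelin genes were read from a list of 8 genes, of which 7 were tested in each tissue and 0 passed the FDR (edgeR). In the palatal shelf 4 were higher and 3 lower, with 0 at an unadjusted p under 0.05. Msx2, a homeobox gene that responds to BMP, stood at 15.1, 2.98 and 2.7 CPM in wild-type libraries and at 20.8, 16.7 and 20.9 CPM with the PI3K allele. Its groups did not overlap, and the log2 fold change was 1.49 (standard error 0.64, adjusted p 0.9997, edgeR). In the maxillary process 2 were higher and 5 lower. Tbx1, a T-box gene of arch mesoderm and ectoderm, stood at 5.68, 7.24 and 5.81 CPM in controls and at 31.1, 14.5 and 8.21 CPM in labelled-cKO libraries (those labelled Srsf3 cKO), 1.52 higher on the log2 scale (standard error 0.45, adjusted p 0.2923, edgeR). Grem1, which encodes a BMP antagonist, stood at 4.49, 7.71 and 17.2 CPM against 2.38, 1.75 and 4.71 CPM, a log2 fold change of -1.75 (standard error 0.56, adjusted p 0.3226). Bmp7 had a log2 fold change of -0.43 (standard error 0.14, adjusted p 0.3282). Fgf8, the epithelial signal of the proximal arch, had 0 counts in every control and 0, 28 and 37 in labelled-cKO libraries 1, 2 and 3. Ectoderm genes summed to 16.3, 10.1 and 17.8 TPM there and to 1.83 to 8.25 TPM in controls; their part was not tested.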
